A study of Homo sapiens with 4 samples.

Results

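The amino acid transporter solute carriers are the membrane proteins that move amino acids, and some related small molecules, into and out of the cell. They were taken as every probe set annotated with a single gene symbol that begins with SLC1A, SLC3A, SLC6A, SLC7A, SLC36A, SLC38A or SLC43A followed by a number. Of the 33297 probe sets measured, 61 met this rule, and with the brightest probe set kept for each gene they stood for 59 of the 18417 genes with a probe set of their own. The rule goes by symbol, so it also took in carriers of monoamines, GABA, creatine and taurine of the SLC6 family, and SLC7A6OS, which by its name is the opposite-strand neighbour of the carrier gene SLC7A6.

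The samples were cultures of MDA-MB-231, a human triple-negative breast cancer cell line. FOXC1 cells had received a FOXC1 plasmid (2 arrays) and vector cells the empty vector (2 arrays), both with the lipid reagent Lipo2000, in DMEM with 10% FBS, penicillin and streptomycin. FOXC1 is a forkhead transcription factor. From each culture 100 ng of total RNA was labelled for a whole-transcript Affymetrix gene array, and each value is a PLIER signal, a linear brightness per probe set. The labels call the arrays biological replicates but do not say whether they came from separate transfections, so p-values measure the spread between these arrays, which may be technical. The sources used here do not say if the plasmid was carried transiently or stably, or if a culture was 1 clone or many. Signal of FOXC1 was not analysed here, and no check of the labels by it was made.

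Cells import essential amino acids and exchange non-essential ones through a small set of carriers with overlapping substrates. Heteromeric exchangers pair an SLC3 heavy chain, which brings the complex to the membrane, with an SLC7 light chain, which carries the substrate: SLC3A2 with SLC7A5 makes the exchanger LAT1 for large neutral amino acids, and SLC3A2 with SLC7A11 makes xCT, which takes up cystine in return for glutamate. Sodium-coupled carriers such as SLC1A5, an exchanger, and SLC38A2 carry glutamine and other small neutral amino acids, and SLC7A1 and SLC7A2 bring in arginine and lysine. In tumour cells these carriers feed protein synthesis, mTORC1 signalling and glutathione production, and many of their genes are known targets of the stress factor ATF4.

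The 4 arrays had median signals of 499 and 512 in FOXC1 cells and 492 and 489 in vector cells over all probe sets. Log2 signals correlated at 0.998 between arrays of the same group and at 0.989 to 0.990 between groups. Of 10 genes listed here as high in MDA-MB-231, 9 had a mean signal above the median of tested probe sets (782), and SPARC was low at 157. Of the 10, 2 rose and 5 fell, and the summed signal of the 10 was 91169 to 91316 in FOXC1 cells and 95046 to 95854 in vector cells. Summed signal of 12 luminal epithelial markers was 22687 to 23063 in FOXC1 cells, against 28000 to 28517 in vector cells, with SPDEF (-2.35 log2), FOXA1 (-1.35), EPCAM (-0.58) and KRT8 (-0.28) among the 7 that fell. Summed signal of 10 leukocyte markers was 11457 to 11537 in FOXC1 cells and 10934 to 10937 in vector cells, that of 9 fibroblast markers 2753 to 2877 and 2702 to 2801, and that of 8 neural markers 2188 to 2322 and 2099 to 2183, with PTPRC and CD68, DCN, and SNAP25 the genes that rose and 0 lower in each. CD68 alone made up most of the leukocyte sum, with a mean signal of 8702 over the 4 arrays and a rise of 0.07 log2. PTPRC, which defines leukocytes, had 93.9 and 93.5 in FOXC1 cells against 62.6 and 63.5 in vector cells, all below the 25th percentile of tested probe sets (277). The part of these shifts in the results on carriers was not tested.

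FOXC1 cells had more transcript of the cationic amino acid carrier SLC7A2, the serine and alanine exchanger SLC1A4, the cystine carrier SLC7A11, the leucine carrier SLC43A2 and the heavy chain SLC3A2, and less of the taurine carrier SLC6A6, the neutral amino acid carrier SLC38A4 and the glycine carrier SLC6A9. Of the 59 genes, 22 passed an adjusted p of 0.05, 16 of them higher and 6 lower in FOXC1 cells. The test was limma's moderated test on log2(signal + 16), with Benjamini-Hochberg adjustment over all 21214 probe sets that carry a symbol. The share that passed was 37.3% of the carriers, against 31.4% of all genes. It was 27.1% higher and 10.2% lower for the carriers, against 15.9% higher and 15.5% lower for all genes. The median log2 difference, FOXC1 minus vector, was 0.09 over the 59 carriers and 0.03 over all 18417 genes. It depended on scaling: with each array centred on its median it was 0.0516 over the carriers and -0.0087 over all genes, and with quantile normalization 0.0256 and 0.003. Groups that did not overlap were about as common among the carriers as elsewhere: 27 had both FOXC1 arrays above both vector arrays and 9 had both below, which is 61% of the carriers, against 63.5% of all genes (37.1% above and 26.4% below). In bulk RNA of this kind, a higher level per cell and more cells of a kind with that gene cannot be told apart.

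**Figure D1:**
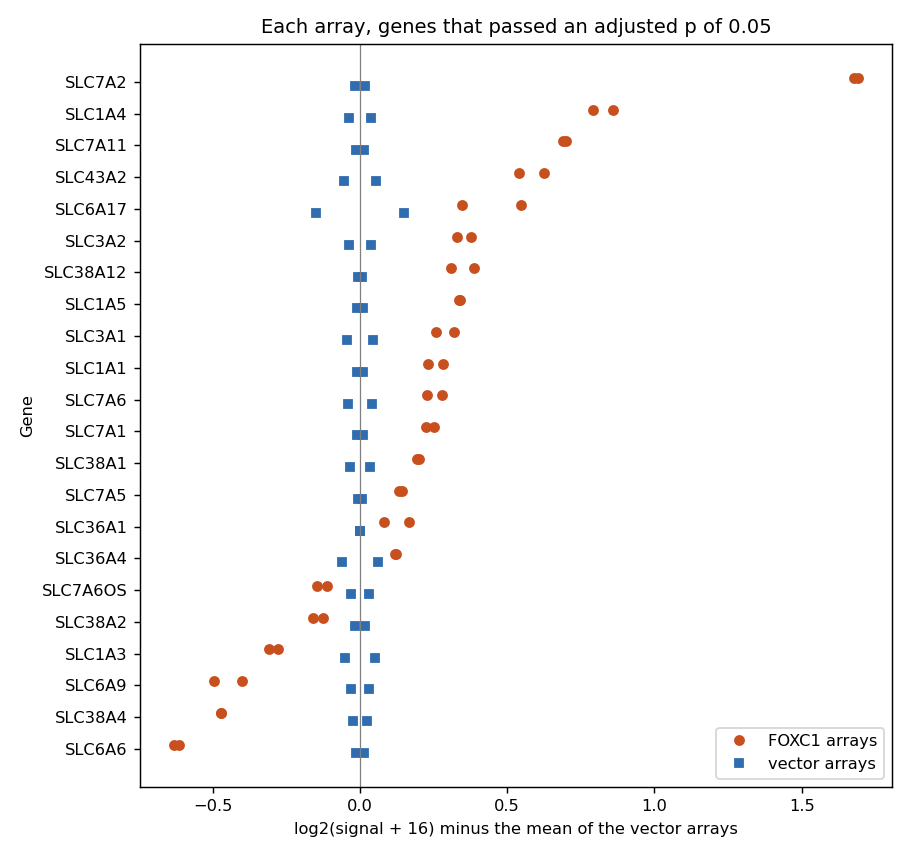
Each of the 22 carrier genes that passed is shown with its 4 arrays, as log2(signal + 16) minus the mean of the vector arrays; circles are FOXC1 arrays and squares vector arrays. SLC7A2 stands apart at 1.68, the other genes lie between 0.82 (SLC1A4) and -0.62 (SLC6A6), and in all 22 genes the circles lie on one side of the squares. The genes were picked by the test on these same 4 arrays, so this separation is no added support. Groups did not overlap in 63.5% of all genes.

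How bright a carrier was went with how often it passed. Among the 23 carriers with a mean signal above the median of 782, 17 passed (13 higher, 4 lower, 73.9%), against 47.3% of all genes that bright (23.9% higher, 23.3% lower). Among the 15 carriers between the 25th percentile and the median, 4 passed, 2 in each direction, against 21.5% of such genes (10.1% higher, 11.4% lower). Of the 21 carriers at or below the 25th percentile only SLC6A17 passed, against 8.63% of genes as dim (5.15% higher, 3.48% lower). The median log2 difference was 0.12 over the carriers above the median signal, against 0.01 over genes as bright. It was 0.08 against 0.05 in the middle band and 0.061 against 0.064 in the dimmest. Most differences were modest: 5 carriers of 59 passed and differed by 0.5 or more on the log2 scale, against 749 of all 18417 genes. SLC7A2 alone of the 59 differed by 2-fold or more, against 177 of all genes, in a count that did not ask for a pass.

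**Figure D2:**
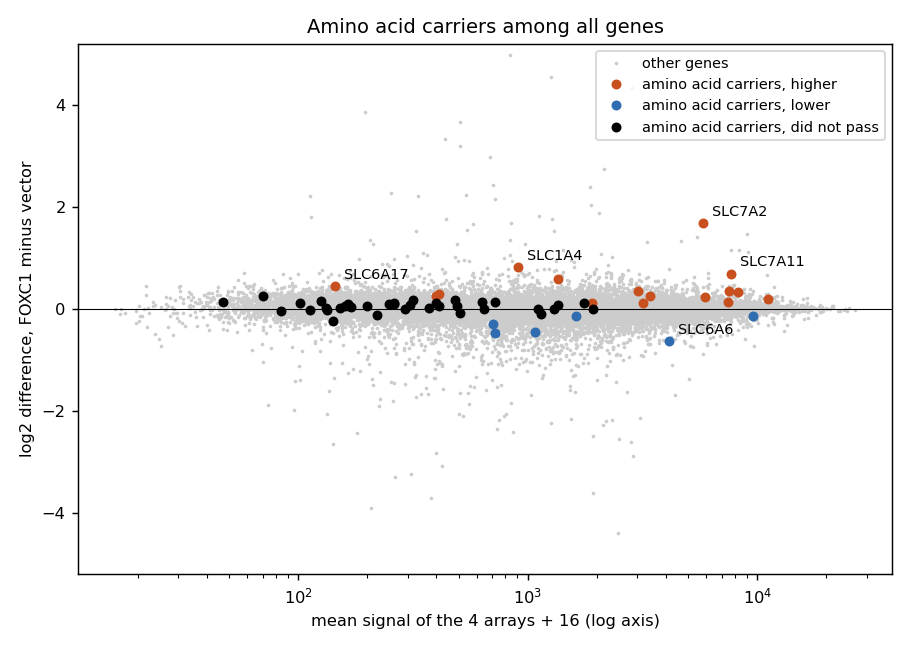
Each point is a gene, with its mean signal over the 4 arrays plus 16 on a log axis and its log2 difference, FOXC1 minus vector, on the vertical axis; grey points are other genes, red carriers higher, blue carriers lower and black carriers that did not pass. The carriers that passed lie mostly above the median signal of 782, and SLC7A2 (1.68) is farthest from 0 among the carriers.

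Within the cationic branch of SLC7, whose best-known members carry arginine, lysine and ornithine without a heavy chain, SLC7A2 and SLC7A1 rose and the other 3 did not pass. SLC7A2, also called CAT2, which supplies arginine to nitric oxide synthase and arginase in other cell types, had a signal of 8879 and 8782 in FOXC1 cells, against 2769 and 2706 in vector cells. The FOXC1 arrays lay far above the vector arrays, with replicates within each group close together. The difference was 1.68 ± 0.03 (SE) on the log2 scale, 3.21-fold higher in FOXC1 cells (95% interval 1.62 to 1.75 log2, adjusted p = 5.51e-20), which ranked 61 among all 18417 genes by size. SLC7A1, the ubiquitous arginine and lysine carrier CAT1, had 6352 and 6477 in FOXC1 cells and 5477 and 5392 in vector cells. Its groups did not overlap either, but the difference was smaller, 0.24 ± 0.03 log2 (adjusted p = 1.02e-06). SLC7A4, SLC7A14 and SLC7A3 had mean signals of 735, 398 and 118 in FOXC1 cells and 671, 368 and 119 in vector cells, with log2 differences of 0.13, 0.11 and -0.02.

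In the RefSeq gene order (GRCh38.p14), the 3 measured protein-coding genes before SLC7A2 were also higher in FOXC1 cells and the next ones after it were not. MTMR7, a phosphoinositide phosphatase gene beside SLC7A2, averaged 330 in FOXC1 cells and 159 in vector cells (0.98 log2). VPS37A, an ESCRT-I subunit gene, and CNOT7, a deadenylase gene, followed at 0.32 and 0.08 log2. On the other side PDGFRL (-0.30) and MTUS1 (-0.20) fell, and FGL1, dim in both groups, did not pass. For the 22 carriers that passed, the 6 nearest measured protein-coding neighbours of each were looked up. Of these 132 places, 28 (21.2%) held a gene called in the carrier's own direction. Of all genes, not limited to protein-coding ones, 15.9% were higher and 15.5% lower. Some genes counted beside more than 1 carrier, and SLC38A2 and SLC38A4, both lower, counted for each other. The count ran from 0 to 4 of 6 for a carrier. SLC7A1 had 4, among them SLC46A3 (0.41) and KATNAL1 (0.36), whereas UBL3 beside it fell (-0.18). SLC7A2 and SLC7A6OS had 3, SLC7A5, SLC7A6, SLC38A12, SLC6A17 and SLC1A3 had 0, and the other 14 had 1 or 2.

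Both heavy chains of the heteromeric exchangers rose. SLC3A2, the 4F2 heavy chain also known as CD98, had 8526 and 8241 in FOXC1 cells, against 6386 and 6739 in vector cells. SLC3A1, the rBAT heavy chain of the kidney and gut cystine carrier, was dimmer, with 447 and 428 in FOXC1 cells and 367 and 344 in vector cells. The groups were separate for both genes, by 0.35 ± 0.03 log2 for SLC3A2 (adjusted p = 5.05e-09) and 0.29 ± 0.08 for SLC3A1 (adjusted p = 0.00958). Without vector replicate 2, SLC3A1 no longer passed (0.24 log2, adjusted p = 0.129).

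Of the 8 light chains that pair with them, 3 rose and none fell by the test, nor at an unadjusted p of 0.05. SLC7A11, the cystine and glutamate exchanger xCT that supplies cysteine for glutathione, had 9519 and 9438 in FOXC1 cells, against 5794 and 5905 in vector cells. Every FOXC1 array was above every vector array, by 0.69 ± 0.03 log2 or 1.62-fold (adjusted p = 8.00e-15), the third largest rise among the carriers. SLC7A6, y+LAT2, which exchanges arginine for glutamine, had 3614 and 3752 in FOXC1 cells and 3177 and 3000 in vector cells (0.25 ± 0.04 log2, adjusted p = 1.91e-05). SLC7A5, the LAT1 light chain for leucine and other large neutral amino acids, had 7837 and 7781 in FOXC1 cells and 7062 and 7130 in vector cells. Its difference was small, 0.14 ± 0.03 log2 (adjusted p = 0.000248), though the arrays did not overlap. SLC7A10, an alanine, serine and cysteine exchanger chain, was above the median signal and gave 1807 and 2019 in FOXC1 cells and 1857 and 1937 in vector cells, a log2 difference of 0.01 (95% interval -0.10 to 0.12). The other 4, SLC7A7, SLC7A8, SLC7A9 and SLC7A13, had log2 differences between -0.23 and 0.14.

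**Figure D3:**
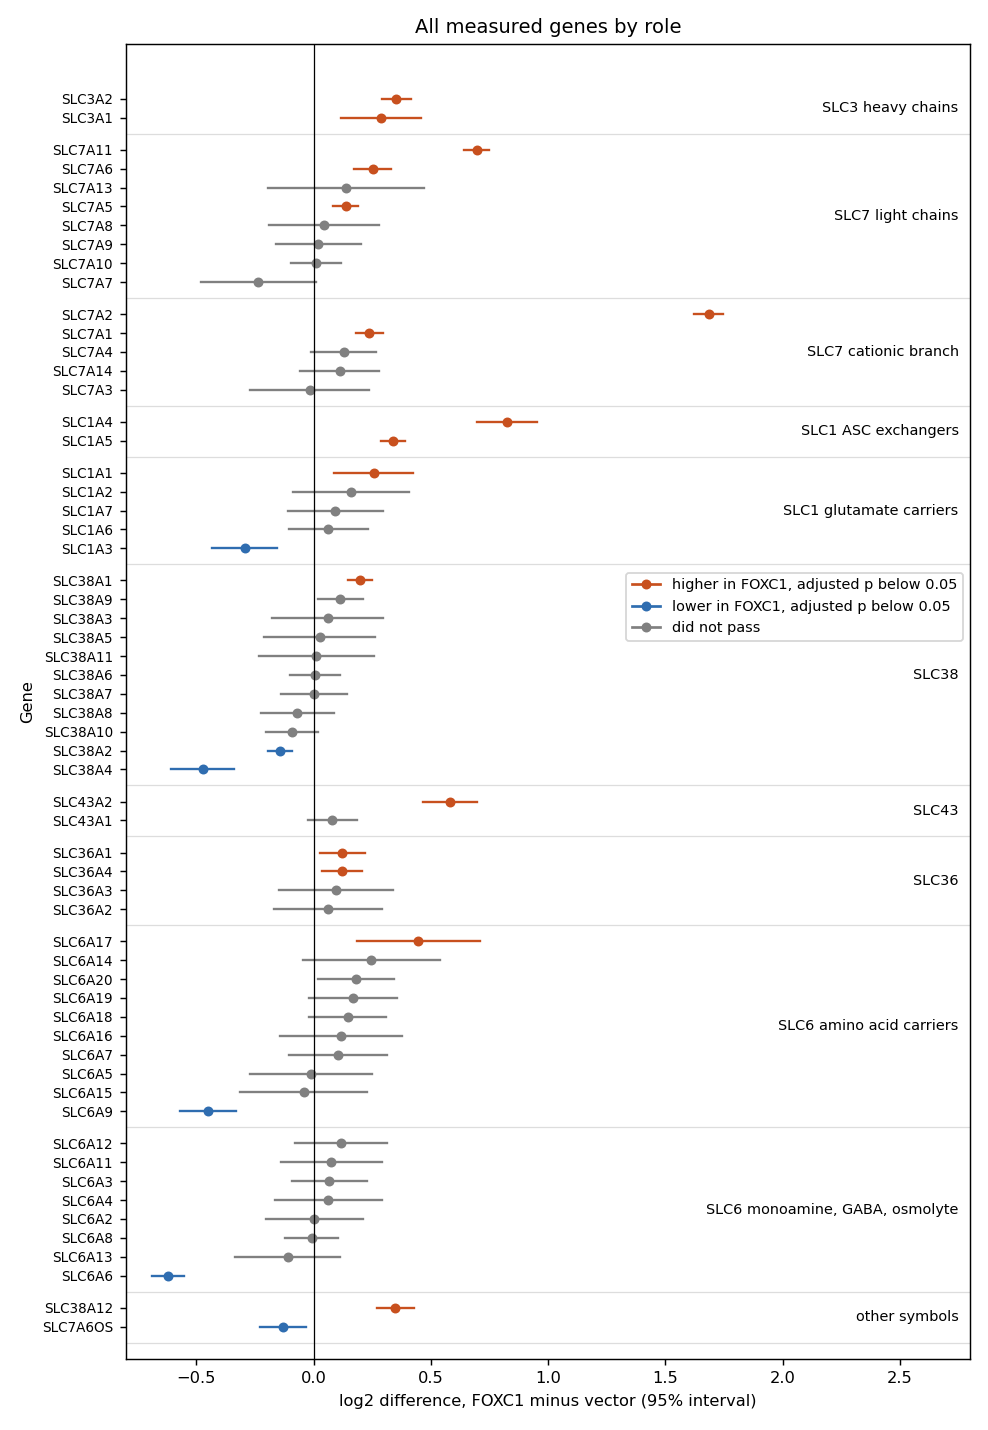
The log2 difference, FOXC1 minus vector, of all 59 carrier genes with its 95% interval, grouped by role; red genes were higher and blue genes lower at an adjusted p below 0.05, and grey genes did not pass. Both SLC3 heavy chains and both ASC exchangers of the SLC1 family are red, while the SLC38 and SLC6 families hold red and blue genes.

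Both alanine, serine and cysteine exchangers of the SLC1 family rose. SLC1A4, ASCT1, had 1174 and 1120 in FOXC1 cells, against 658 and 624 in vector cells. SLC1A5, ASCT2, a main glutamine carrier of tumour cells, had 9175 and 9206 in FOXC1 cells and 7311 and 7224 in vector cells. The groups did not overlap for either gene: SLC1A4 was 0.82 ± 0.06 log2 or 1.77-fold higher (adjusted p = 8.65e-10), and SLC1A5 0.34 ± 0.02 log2 or 1.26-fold higher (adjusted p = 7.31e-10). A second, dimmer SLC1A5 probe set with 1110 and 1171 in FOXC1 cells and 890 and 904 in vector cells gave a difference of the same size, 0.34 ± 0.06 log2.

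The 5 glutamate carriers of the SLC1 family went different ways. SLC1A1, EAAC1, which takes up glutamate and cysteine, had 428 and 412 in FOXC1 cells and 346 and 351 in vector cells (0.26 ± 0.08 log2, adjusted p = 0.0190). SLC1A3, the glutamate and aspartate carrier EAAT1, had 624 and 612 in FOXC1 cells and 790 and 734 in vector cells (-0.29 ± 0.07 log2, adjusted p = 0.00173). Neither gene's groups overlapped, the first with FOXC1 arrays on top and the second with vector arrays on top. SLC1A2, SLC1A6 and SLC1A7, better known from brain and retina, had mean signals of 117, 405 and 253 in FOXC1 cells and 103, 387 and 236 in vector cells and did not pass. Without vector replicate 1 the call of SLC1A3 was lost (-0.24 log2, adjusted p = 0.0704), and that of SLC1A1 was lost without vector replicate 1 (0.126), vector replicate 2 (0.0951) or FOXC1 replicate 1 (0.0583).

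The start regions of these carriers were searched for the core of the C/EBP-ATF response element, TGATGNAA on either strand, since ATF4 is known to act through it on carrier genes. The RefSeq promoter table (GRCh38.p14) held 68 windows of 46 of the 59 genes, each from 250 bases before to 50 bases after a transcript start, so 300 bases long, with 1 to several starts a gene. It gave none for SLC7A2, SLC7A11, SLC3A1 and SLC6A6. The core was in 6 of the 68 windows (8.82%), against 3.62% of all 35116 windows of the table. All but 1 of the 6 belonged to genes that rose, SLC1A4, SLC1A5, SLC3A2, SLC7A1 and SLC38A1 (5 of the 23 windows of all carriers that rose), the other was in 1 of the 7 windows of genes that fell, SLC1A3, and 0 of the 38 windows of carriers that did not pass held it. A match is a description of letters and not a shown binding site, and the core is short enough to occur in windows of genes of every kind. The 4 windows written out here are those of the heavy chain SLC3A2, both ASC exchangers and the one gene that fell, written 5′ to 3′ on the gene's strand with the core in capitals.
SLC1A4 (chr2:64989149-64989448, plus strand): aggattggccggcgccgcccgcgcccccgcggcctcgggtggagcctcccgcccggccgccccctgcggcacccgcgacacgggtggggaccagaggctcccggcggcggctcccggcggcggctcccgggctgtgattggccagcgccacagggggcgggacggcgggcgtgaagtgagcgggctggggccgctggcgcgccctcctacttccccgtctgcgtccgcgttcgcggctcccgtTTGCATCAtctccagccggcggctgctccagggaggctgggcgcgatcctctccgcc
SLC1A5 (chr19:46784765-46785064, minus strand): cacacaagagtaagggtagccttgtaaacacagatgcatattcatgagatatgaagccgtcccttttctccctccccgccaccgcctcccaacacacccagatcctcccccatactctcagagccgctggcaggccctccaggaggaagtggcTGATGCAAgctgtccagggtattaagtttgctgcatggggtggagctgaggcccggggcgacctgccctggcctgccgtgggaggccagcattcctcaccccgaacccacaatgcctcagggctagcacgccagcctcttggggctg
SLC3A2 (chr11:62881449-62881748, plus strand): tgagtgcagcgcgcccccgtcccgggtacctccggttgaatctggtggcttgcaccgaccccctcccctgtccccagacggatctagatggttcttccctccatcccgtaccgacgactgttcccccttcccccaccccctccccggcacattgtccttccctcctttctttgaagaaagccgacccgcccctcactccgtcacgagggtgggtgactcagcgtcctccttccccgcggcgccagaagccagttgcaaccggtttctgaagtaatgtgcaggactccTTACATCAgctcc
SLC1A3 (chr5:36596338-36596637, plus strand): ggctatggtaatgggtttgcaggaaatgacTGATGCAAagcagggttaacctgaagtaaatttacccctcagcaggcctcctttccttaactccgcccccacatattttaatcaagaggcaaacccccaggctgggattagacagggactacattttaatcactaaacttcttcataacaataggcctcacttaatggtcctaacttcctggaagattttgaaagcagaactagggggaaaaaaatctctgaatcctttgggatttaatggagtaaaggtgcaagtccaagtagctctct

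Counted from the first base of the window, the core lay at bases 244 to 251 in SLC1A4 and 288 to 295 in SLC3A2, both read on the opposite strand, so close to or just after the start. It lay at bases 154 to 161 in SLC1A5 and 31 to 38 in SLC1A3, on the gene's own strand and further upstream. SLC1A4 has 2 windows in the table and SLC1A5, SLC3A2 and SLC1A3 have 3 each, and the windows of these genes not written out did not hold the core. Other motifs were also searched on both strands. The antioxidant response core TGACNNNGC was in 7 of the 68 carrier windows (10.3%), against 13.3% of all windows. It was in 5 of the 23 windows of genes that rose (SLC3A2, SLC7A1, SLC7A5, SLC7A6 and SLC1A5). It was also in 1 of the 7 windows of genes that fell (SLC1A3) and 1 of the 38 of carriers that did not pass. The SLC3A2 window holds it at bases 214 to 222, and no match of one motif overlapped a match of another. The forkhead motif GTAAACA was in 2 of 68 windows (2.94%), against 3.42% of all windows, 1 of SLC1A5, where it lies at bases 24 to 30 of the window printed, and 1 of SLC43A1. The E-box CACGTG was in 10 of 68 (14.7%), against 7.26% of all windows, 3 of them in windows of genes that rose and 7 in windows of genes that did not pass.

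The 11 sodium-coupled neutral amino acid carriers of the SLC38 family split, with SLC38A1 higher and SLC38A2 and SLC38A4 lower. SLC38A1, SNAT1, a glutamine carrier, was the brightest of the 59 genes, with 11956 and 11878 in FOXC1 cells, against 10138 and 10651 in vector cells. SLC38A2, SNAT2, the glutamine and alanine carrier that adapts to amino acid supply, had 9221 and 9001 in FOXC1 cells and 10170 and 9949 in vector cells. SLC38A4, SNAT4, best known from liver, had 586 and 587 in FOXC1 cells and 834 and 806 in vector cells. The arrays of the groups were separate in all 3, with log2 differences of 0.20 ± 0.02 (adjusted p = 2.07e-06), -0.14 ± 0.02 (adjusted p = 9.87e-05) and -0.47 ± 0.07 (adjusted p = 6.82e-06). These 3 genes stand side by side on chromosome 12 in the RefSeq order of measured protein-coding genes. Beyond SLC38A4 the adhesion gene AMIGO2 rose (0.46), and on the far side of SLC38A1 the splicing factor gene SCAF11 did not pass (-0.08) while ARID2 (-0.13) and ANO6 (-0.22) fell.

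SLC38A9, the lysosomal arginine sensor of mTORC1, had 1837 and 1769 in FOXC1 cells and 1677 and 1651 in vector cells, with no overlap, and missed the threshold at 0.11 log2 (adjusted p = 0.0642). SLC38A10 had 1099 and 1080 in FOXC1 cells and 1159 and 1166 in vector cells, -0.09 log2 (95% interval -0.20 to 0.02). SLC38A6 gave 1311 and 1258 in FOXC1 cells and 1271 and 1284 in vector cells, 0.01 log2 (95% interval -0.10 to 0.11). These intervals leave room for small differences in either direction. The other 5 (SLC38A3, SLC38A5, SLC38A7, SLC38A8 and SLC38A11) lay between -0.07 and 0.06. SLC38A12, a symbol that meets the rule and whose function is not described here, had 3462 and 3281 in FOXC1 cells, against 2633 and 2656 in vector cells, 0.35 ± 0.04 log2 (adjusted p = 3.09e-07).

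SLC43A2, LAT4, which lets leucine and other neutral amino acids pass without sodium, had 1653 and 1555 in FOXC1 cells, against 1106 and 1026 in vector cells. Its arrays did not overlap, and its rise of 0.58 ± 0.05 log2 (adjusted p = 3.09e-08) came next in size after that of SLC7A11. SLC43A1, LAT3, of similar function, had 1392 and 1358 in FOXC1 cells and 1323 and 1278 in vector cells and did not pass (0.08 log2, 95% interval -0.03 to 0.19). SLC43A3 shared its probe set with PRG2 and so was not counted; that probe set averaged 12898 in FOXC1 cells and 12039 in vector cells (0.10 log2, adjusted p = 0.00103).

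Of the 4 proton-coupled carriers of the SLC36 family, 2 passed by a narrow margin. SLC36A1, PAT1, which exports small amino acids from lysosomes, had 2022 and 1903 in FOXC1 cells and 1801 and 1798 in vector cells (0.12 ± 0.05 log2, adjusted p = 0.0441). SLC36A4, PAT4, had 3302 and 3289 in FOXC1 cells and 3165 and 2901 in vector cells (0.12 ± 0.04 log2, adjusted p = 0.0274). The groups did not overlap but came close, and both calls were lost when each array was centred on its median, with log2 differences of 0.08 and adjusted p of 0.328 for SLC36A1 and 0.264 for SLC36A4. SLC36A4 also lost its call without vector replicate 2 (0.06 log2, adjusted p = 0.520), and SLC36A1 without FOXC1 replicate 1 (0.08, 0.191), vector replicate 1 (0.12, 0.195) or vector replicate 2 (0.12, 0.208). SLC36A2 and SLC36A3 were dim (mean signals of 147 and 155 in FOXC1 cells, 140 and 143 in vector cells) and did not pass.

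The SLC6 family, sodium- and chloride-coupled carriers, held the largest fall. SLC6A6, the taurine carrier TauT, had 3253 and 3215 in FOXC1 cells, against 5031 and 4939 in vector cells. Every FOXC1 array was below every vector array, by -0.62 ± 0.03 log2, which is 1.54-fold lower in FOXC1 cells (adjusted p = 3.01e-12). SLC6A9, the glycine carrier GlyT1, had 920 and 860 in FOXC1 cells and 1247 and 1193 in vector cells. It too was lower in both FOXC1 arrays, by -0.45 ± 0.06 log2 or 1.36-fold (adjusted p = 2.84e-06).

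SLC6A8, the creatine carrier, was above the median signal and gave 1063 and 1113 in FOXC1 cells and 1093 and 1095 in vector cells, -0.01 log2 (95% interval -0.12 to 0.11). SLC6A17, a neutral amino acid carrier of synaptic vesicles, rose at low signal, with 140 and 163 in FOXC1 cells and 94.5 and 120 in vector cells (0.45 ± 0.13 log2, adjusted p = 0.00915). Its groups did not overlap, but the lowest FOXC1 array was close to the highest vector array, and leaving out FOXC1 replicate 2 (0.35, adjusted p = 0.103) or vector replicate 1 (0.30, adjusted p = 0.159) ended its call. The other 8 amino acid carriers of the family lay between -0.04 and 0.25 log2, and the 6 remaining monoamine, GABA and betaine carriers between -0.11 and 0.12. Their mean signals were all below the median of tested probe sets, and none of them passed. SLC7A6OS had 1512 and 1550 in FOXC1 cells and 1711 and 1642 in vector cells (-0.13 ± 0.05 log2, adjusted p = 0.0432), the opposite direction to SLC7A6, and lost its call when either vector array or FOXC1 replicate 1 was left out (-0.10, -0.16 and -0.11 log2).

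Of the 22 genes that passed, 12 did so under each of the 16 alternatives that tested them. These were SLC7A2, SLC1A4, SLC7A11, SLC43A2, SLC3A2, SLC38A12, SLC1A5, SLC7A6 and SLC7A1 among the higher genes, and SLC6A6, SLC38A4 and SLC6A9 among the lower ones. The other 10 lost the call under at least 1 alternative, and 0 of the 22 turned in sign.

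**Figure D4:**
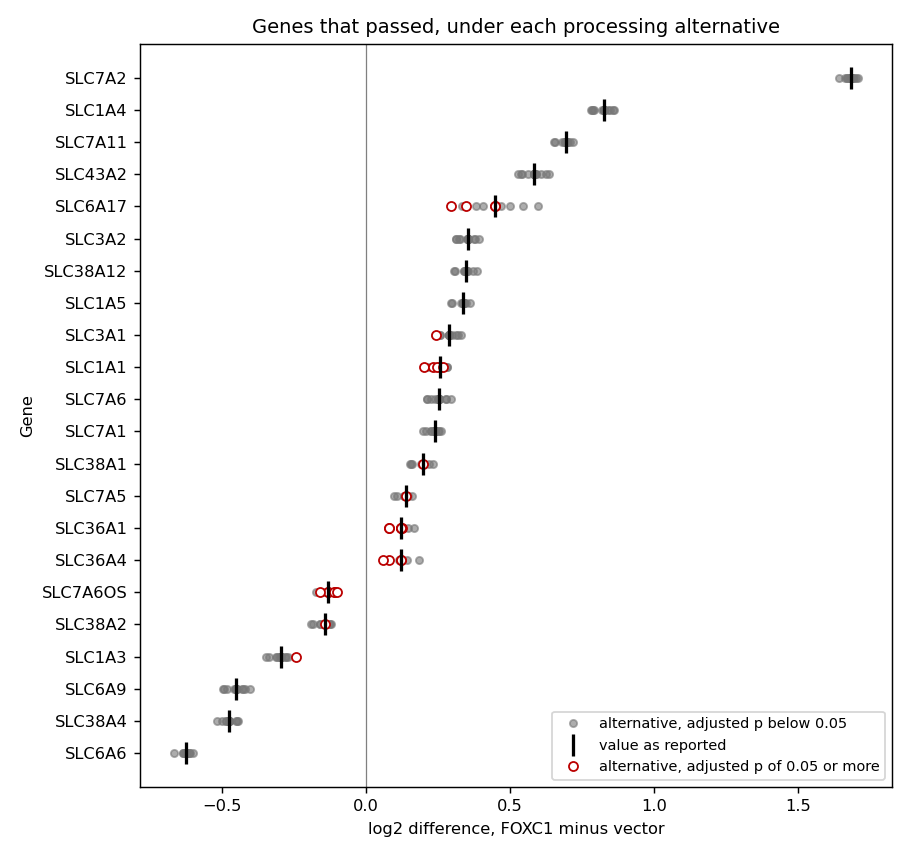
For each of the 22 genes that passed, the log2 difference, FOXC1 minus vector, as reported (black bar) and under each processing alternative (grey points, adjusted p below 0.05; open red points, adjusted p of 0.05 or more). SLC7A2 stays between 1.64 and 1.71, and open points are found in 10 genes with differences of 0.45 or less in size.

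Genes that use, sense or respond to amino acids were set beside the carriers, in lists that hold no carrier of the 7 families. The lists share some genes, so their counts are not separate results. ASNS, PSAT1, PHGDH and ALDH18A1 count in the ATF4 and glutamine lists. SESN2 counts in the ATF4 and sensing lists, and CHAC1 in the ATF4 and glutathione lists. Most genes of these lists were bright, so their counts are read here against the genes above the median signal, of which 47.3% passed (23.9% higher, 23.3% lower). Of 42 genes of the ATF4 amino acid response, 20 rose and 6 fell, with a median log2 difference of 0.10 against 0.03 over all genes. Of its 34 genes above the median signal, 18 rose and 5 fell (52.9% and 14.7%). Asparagine synthetase ASNS had 2155 and 2224 in FOXC1 cells and 1350 and 1360 in vector cells (0.69 log2). The stress factor DDIT3, the factor ATF5 and the secreted stress marker GDF15 rose by 0.69, 0.62 and 0.80 log2. The mTORC1 inhibitor DDIT4 had 807 and 742 in FOXC1 cells, against 3558 and 3612 in vector cells, and fell by 2.19 log2; ATF3 fell too (-0.39), as did the ATF4 transcript (-0.22). When each array was centred on its median, 11 of the 42 rose, and without vector replicate 1 13 rose and 3 fell.

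Of 21 genes of cystine and glutathione handling, 9 rose and 3 fell (median 0.08), and of the 17 above the median signal 7 rose and 2 fell, 52.9% in all, close to the 47.3% of genes as bright. The thioredoxin reductase TXNRD1 (0.45), the sulfiredoxin SRXN1 (0.44), the glutathione reductase GSR (0.41) and the glutamate-cysteine ligase subunit GCLM (0.30) rose, beside the cystine carrier SLC7A11 (0.69), and the glutathione-cleaving enzyme GGT5 fell (-0.49). Of 13 enzymes of glutamine, glutamate and asparagine metabolism, 5 rose and 2 fell (median 0.09), all among the 12 above the median signal (58.3%). PSAT1 (0.23), PPAT (0.19) and CAD (0.14) rose with ASNS, and the glutamine synthetase GLUL (-0.50) and OAT (-0.14) fell. GLUL had 1824 and 1762 in FOXC1 cells and 2630 and 2440 in vector cells, opposite in direction to the glutamine carriers SLC1A5 and SLC38A1 and the same as the glutamine carrier SLC38A2.

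Of 21 enzymes of arginine, polyamine and branched-chain amino acid metabolism, 3 rose and 5 fell (median 0.02), all among the 15 above the median signal (53.3%, against 47.3%). The argininosuccinate synthase ASS1, an enzyme of arginine synthesis within the cell, had 782 and 768 in FOXC1 cells, against 1224 and 1237 in vector cells (-0.66 log2), while the arginine carriers SLC7A2 and SLC7A1 rose. The arginase ARG2 (-0.25), the polyamine acetyltransferase SAT1 (-0.34) and the branched-chain keto acid dehydrogenase subunit BCKDHB (-0.38) fell, and the polyamine enzymes SRM (0.26) and ODC1 (0.19) rose. Of 31 genes listed for amino acid sensing and mTORC1, MTOR itself and MITF, TFE3 and TFEB included, 10 rose and 7 fell (median 0.04). Of the 27 above the median signal 10 rose and 5 fell, 55.6% against 47.3%. Without vector replicate 1 only 4 rose, without vector replicate 2 only 4 fell, and with each array centred on its median 5 rose. MITF (0.71), a transcription factor for melanocyte and lysosome genes, the GATOR2 subunit SEH1L (0.48) and the Ragulator subunit LAMTOR3 (0.38) rose. The leucine sensor family member SESN3 fell by 1.05 log2 at low signal. It had 202 and 183 in FOXC1 cells and 438 and 391 in vector cells, all below the median of tested probe sets. The GATOR2 subunit WDR59 (-0.45) and the arginine sensor CASTOR1 (-0.39) fell too.

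Of 21 amino acid carriers of other families, 6 rose and 0 fell by limma's adjusted p, with a median of 0.12, and all 6 were among the 12 above the median signal (50% higher, against 23.9%); at an unadjusted p of 0.05, 0 fell. The mitochondrial glutamate carrier SLC25A22 had 1618 and 1571 in FOXC1 cells and 1176 and 1169 in vector cells (0.44 log2). The lysosomal carriers SLC66A1 (0.27), CTNS (0.22) and MFSD12 (0.17), which export cationic amino acids, export cystine and import cysteine, also rose, as did the mitochondrial ornithine carrier SLC25A15 (0.25) and the glycine carrier SLC25A38 (0.21).

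**Figure D5:**
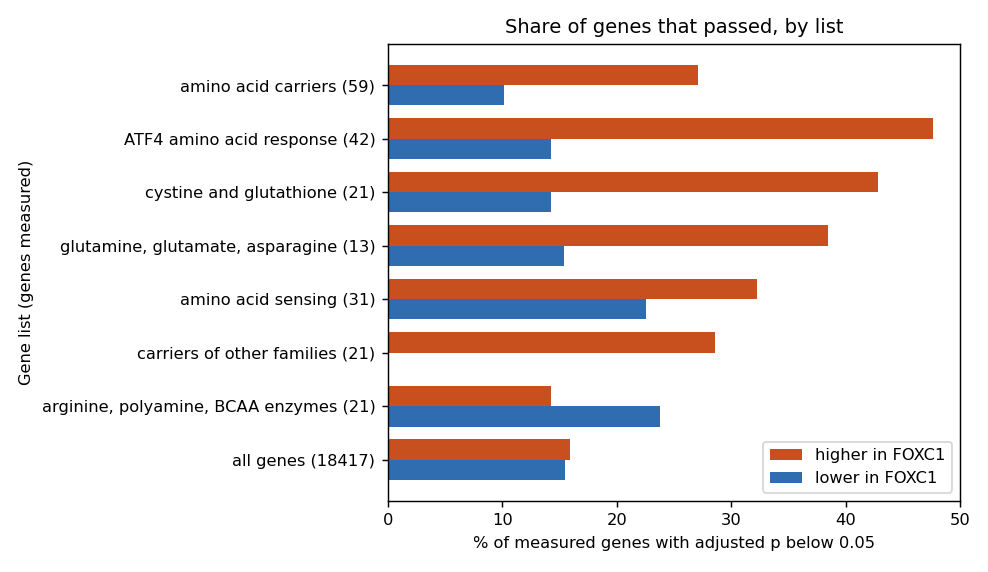
Bars give the percentage of measured genes of each list with an adjusted p below 0.05, higher (red) or lower (blue) in FOXC1 cells, with the number measured in brackets and all 18417 genes at the bottom. The carriers passed at 27.1% higher and 10.2% lower, against 15.9% and 15.5% of all genes, and only the arginine, polyamine and branched-chain list has a longer blue than red bar.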

How the data were processed

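RNA of 4 cultures was measured on Affymetrix whole-transcript gene arrays, 2 per group. The deposited values are PLIER gene-level signals, a linear intensity per probe set, made with Affymetrix Expression Console per the submitters' processing notes; the sources used here give no version, normalization or background settings. Of 33297 probe sets, 12083 without a gene symbol in the platform annotation were left out, and the 21214 others were tested: log2(signal + 16), limma 3.58.1 in R 4.3.3 (lmFit, eBayes with a variance trend), Benjamini-Hochberg adjustment at 0.05. A gene is its brightest single-symbol probe set (18417 genes); 4 probe sets that name a carrier together with other genes were left out of the counts. The number of arrays limits the precision. Fold changes are on the log2(signal + 16) scale, which understates those of dim genes.

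All carriers that passed, or whose mean signal was above the median, are named, and up to 6 passing genes of each other list. The carriers, lists and motifs were chosen with earlier results of these data known. Replicate numbers were checked for pairing, and the correlation of deviations between groups was -0.01. With only 2 pairs this cannot decide whether arrays of the same number were handled together, and the main test used no pairing. Alternatives were the offset, filters on dim probe sets, normalization, moderation, the replicate block, leaving out each array, the probe set rule and testing all probe sets. The script was checked on simulated data.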

Additional observations from a re-analysis of the deposited data

How the results depend on the processing

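Across the 16 alternatives the count of carriers that passed was 22 as reported and otherwise 15 to 23, and no count left a range of 1.5 times the reported one. It was 15 without the variance trend (11 higher, 4 lower), when SLC38A1, SLC7A5 and SLC38A2 were lost with adjusted p of 0.0511, 0.0833 and 0.0878, and 17 when all probe sets were tested. Leaving out single arrays gave 17 to 22 (12 to 16 higher, 4 to 6 lower). With the replicate number as a block, 23 passed (17 higher, 6 lower); the block changed 1 call, SLC38A9 (adjusted p = 0.0311), which also passed with quantile normalization (0.0266), above the 50th percentile of signal (0.0424), without FOXC1 replicate 2 (0.0265) and with centring on the tested probe sets (0.0142). SLC6A18 and SLC6A20 passed without FOXC1 replicate 1. The cause of these changes was not tested.

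The median log2 difference of the carriers (0.0933) was 0.0516 with each array centred on its median, 0.1167 with centring on the tested probe sets only (chosen after seeing the data), 0.0256 with quantile normalization, 0.1174 and 0.1234 among probe sets above the 25th and 50th percentiles of signal, and 0.0774 to 0.118 with single arrays left out; over all genes it was -0.0087, 0.0563 and 0.003 with the 3 normalizations in that order. The share of all genes that passed (31.4%) was 17.7% without the variance trend, 51.7% above the 50th percentile and 22.4% to 32.6% with single arrays left out. The share of all calls that were higher was 50.6% as reported, 33.9% with centring (1739 higher, 3396 lower), when 14 carriers were higher and 6 lower, and 59.6% with centring on the tested probe sets. Without the variance trend 1461 genes were higher and 1790 lower; 1858 were higher when all probe sets were tested and 1913 without vector replicate 2. Of the other lists, the ATF4 response had 12 higher and 3 lower genes without the trend and 3 lower when all probe sets were tested, the sensing list 5 higher without the trend or with centring, 4 higher without vector replicate 1 and 4 lower without vector replicate 2, and the carriers of other families 3 higher without the trend. The glutamine list had 1 higher and 1 lower gene without the trend, 3 higher with centring and 4 lower with quantile normalization, the glutathione list 1 lower and the arginine list 1 higher without the trend. Of the 21 carriers at or below the 25th percentile of signal, 1 passed, and of all genes as dim 8.63% passed; the cause was not tested.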
